A study of Mus musculus with 3 samples.

Results

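The genes described here code for 10 C-type lectin receptors of myeloid cells: Clec4d, Clec4e, Clec4n, Clec7a, Clec9a, Clec10a, Clec12a, Mgl2, Cd209a and Mrc1. They were chosen by name, and 9 of the 10 are among the 17168 genes of the deposited count table. The expression of Clec7a is not analysed here. The genes were read in the myeloid classes of the sciatic nerve, which are the authors' macrophages (Mac, 581 cells), conventional dendritic cells (cDC, 294 cells) and plasmacytoid dendritic cells (pDC, 175 cells). These make up 1050 of the 11640 cells, and the rest are in 6 lymphoid classes and a class named Mixed.

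All cells came from NOD.AIRE GW/+ mice aged 15 weeks, a line on the autoimmune-prone NOD background with 1 altered copy of Aire, a regulator of antigen display in the thymus. The mice were perfused, their sciatic nerves were digested with collagenase, and CD45+ leukocytes were profiled one by one in 3 libraries (3′ chemistry in libraries 1 and 2, 5′ chemistry in library 3). Wild-type nerves are not analysed here, so every comparison runs between cell classes of the same nerves and none measures an effect of genotype. The labels do not say whether a library is 1 animal or a pool, so the spread between libraries may be partly technical. Only library 3 has 5′ chemistry, so whatever sets it apart from libraries 1 and 2 cannot be told apart from an effect of chemistry. The authors drew their classes from these same counts, and a p-value between classes is no evidence that the classes are distinct.

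C-type lectin receptors bind sugars, lipids or proteins on microbes and dying cells through a shared extracellular fold. Clec4d, Clec4e and Clec4n pair with the adaptor chain Fcer1g, which recruits the kinase Syk and, through Card9, switches on inflammatory genes. Others, such as Clec12a, carry an inhibitory motif, and Mrc1, Clec10a, Mgl2 and Cd209a take up glycosylated ligands for degradation and antigen display. Several are used to tell mononuclear phagocytes apart.

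The members lie in clusters on the mouse genome (GENCODE M21, GRCm38). Clec4n (chr6:123229843-123247021, plus strand), Clec4d (chr6:123262111-123275265, plus strand) and Clec4e (chr6:123281789-123289870, minus strand) are neighbours, with 15089 bases between the first pair and 6523 bases between Clec4d and Clec4e. Clec12a (chr6:129342691-129365303), Clec9a (chr6:129408862-129424763) and Clec7a (chr6:129461591-129472779) form a second group on the same chromosome. Mgl2 (chr11:70130329-70137550) and Clec10a (chr11:70156197-70170834) are 18646 bases apart and share sequence: 13.1% of the 50-base windows in Mgl2 transcripts also occur in another gene, 9.02% of those of Clec10a do, and 270 windows are common to the pair. Reads from those stretches could be split between them. Clec9a overlaps Clec1b on the same strand, with 4.02% of its windows shared. Cd209a (chr8:3743397-3748984) and Mrc1 (chr2:14229392-14332057) stand alone.

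The 250 bases before the transcript start are shown for a neighbouring pair of macrophage genes (Clec4d and Clec4e) and for 3 genes of dendritic cells, since the results below turn on them. They are RefSeq sequences on build GRCm38.p6, written 5′ to 3′ on the gene's own strand: Clec4d at chr6:123261857-123262106 (plus), Clec4e at chr6:123289872-123290121 (minus), Clec9a at chr6:129408612-129408861 (plus), Mgl2 at chr11:70130107-70130356 (plus) and Cd209a at chr8:3748985-3749234 (minus). Capitals mark the PU.1 core GAGGAA and the C/EBP pattern TTNNGNAA on either strand, binding patterns of 2 factors of myeloid cells.
Clec4d: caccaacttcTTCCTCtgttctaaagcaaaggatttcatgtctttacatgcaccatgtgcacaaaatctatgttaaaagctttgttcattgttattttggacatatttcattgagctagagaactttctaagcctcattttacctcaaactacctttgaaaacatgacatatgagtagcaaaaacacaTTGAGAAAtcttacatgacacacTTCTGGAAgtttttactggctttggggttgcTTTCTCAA
Clec4e: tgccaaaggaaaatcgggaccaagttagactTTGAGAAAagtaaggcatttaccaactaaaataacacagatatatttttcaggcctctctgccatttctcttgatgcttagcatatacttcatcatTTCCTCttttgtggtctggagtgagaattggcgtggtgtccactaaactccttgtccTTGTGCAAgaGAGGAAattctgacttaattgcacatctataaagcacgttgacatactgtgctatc
Clec9a: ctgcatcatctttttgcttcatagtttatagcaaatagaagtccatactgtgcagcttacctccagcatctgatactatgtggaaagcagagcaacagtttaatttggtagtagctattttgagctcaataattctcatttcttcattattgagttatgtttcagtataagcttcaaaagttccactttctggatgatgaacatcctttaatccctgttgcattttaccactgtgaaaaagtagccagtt
Mgl2: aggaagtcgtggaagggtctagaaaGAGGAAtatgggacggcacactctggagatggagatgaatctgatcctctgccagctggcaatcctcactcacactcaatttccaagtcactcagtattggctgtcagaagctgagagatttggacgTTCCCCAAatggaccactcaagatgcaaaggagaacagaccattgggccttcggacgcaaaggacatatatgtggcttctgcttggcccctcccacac
Cd209a: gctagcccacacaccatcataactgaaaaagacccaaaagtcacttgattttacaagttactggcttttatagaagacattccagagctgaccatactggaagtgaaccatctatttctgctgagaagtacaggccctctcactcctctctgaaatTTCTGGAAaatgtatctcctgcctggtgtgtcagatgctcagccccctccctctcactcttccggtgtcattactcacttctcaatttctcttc
The Clec4d window held 1 GAGGAA and 3 TTNNGNAA matches, and that of Clec4e held 2 of each. Mgl2 had 1 of each, Cd209a had 1 TTNNGNAA, and Clec9a had neither. Of the 8 members with a listed window, Clec7a included, 6 held GAGGAA and 6 held TTNNGNAA, against 23.3% and 36.8% of 32851 mouse promoter windows of the same length. A match is a description of letters and not a bound site.

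Libraries 1, 2 and 3 held 6033, 2333 and 3274 cells with 22587246, 11398628 and 13791264 UMIs (unique molecules counted). Myeloid cells were deeper than the median cell, with a median of 7434 UMIs in Mac, 8700 in cDC and 6569 in pDC. Only 2 pDCs came from library 2, so that library is left out of the main pDC tests and enters only their alternatives. Of the defining markers, C1qa and Adgre1 were seen in Mac, Zbtb46 and Xcr1 in cDC, and Siglech in pDC, at 2444.52 to 2780.24 CPM, in every library. Flt3 was seen in cDC and pDC alike. The 6 conventional dendritic markers summed to 34200, 50826 and 14875 CPM in Mac of libraries 1, 2 and 3, against 35216, 47581 and 61483 CPM in cDC. The 4 type 2 dendritic markers were higher in Mac, at 870, 1120 and 876 CPM against 338, 308 and 538 CPM in cDC. The type 1 and mature dendritic lists were higher in cDC than in Mac in every library. Library 3 stood apart in Mac: its 8 macrophage markers summed to 3615 CPM, against 13255 and 17118 CPM in libraries 1 and 2. That gap was mostly in C1qa, C1qb and C1qc (C1qa 322 CPM against 4475 and 6211 CPM), while Csf1r (685 CPM against 667 and 526 CPM) and Fcgr1 (957 CPM against 926 and 1083 CPM) were not lower there than in both other libraries. Its 5 monocyte markers summed to 5857 CPM against 2170 and 2006 CPM, and its 3 T cell markers to 689 CPM against 62.1 and 7.52 CPM. Cell barcodes that occur in more than 1 library numbered 6.

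Levels below are UMIs per 1000000 UMIs of a class in a library (CPM), in the order library 1, 2, 3. The 9 measured members fell into those with most UMIs in Mac (Clec4d, Clec4e, Clec4n, Mrc1 and Clec12a) and those with most in the dendritic classes (Clec9a, Clec10a, Mgl2 and Cd209a). Of all UMIs counted over the 3 libraries, Mac held 95.1% for Clec4d, 94.3% for Clec4e, 87.1% for Clec4n, 81.9% for Mrc1 and 60.8% for Clec12a. For Mgl2, cDC held 84.1%. The other 3 were divided between dendritic classes: cDC and pDC held 46.0% and 37.5% of Clec9a UMIs, 41.6% and 46.9% of Clec10a UMIs, and 42.3% and 55.8% of Cd209a UMIs. These shares turned between libraries: cDC and pDC held 52.5% and 46.6% of Cd209a UMIs in library 1, and 8.65% and 88.5% in library 3. For Clec10a they held 45.0% and 47.0% in library 1, 55.8% and 11.5% in library 2, and 17.0% and 62.5% in library 3. Shares also follow the number of cells, which was 232, 28 and 34 for cDC and 143, 2 and 30 for pDC. As a level, Clec10a in pDC was 313, 355 and 307 CPM. Clec12a, with most UMIs in Mac, had 212 and 174 CPM there in libraries 1 and 3, against 236 and 237 CPM in pDC. The 7 other classes held between 0.985% (Clec4d) and 5.56% (Clec10a) of a member's UMIs.

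**Figure D1:**
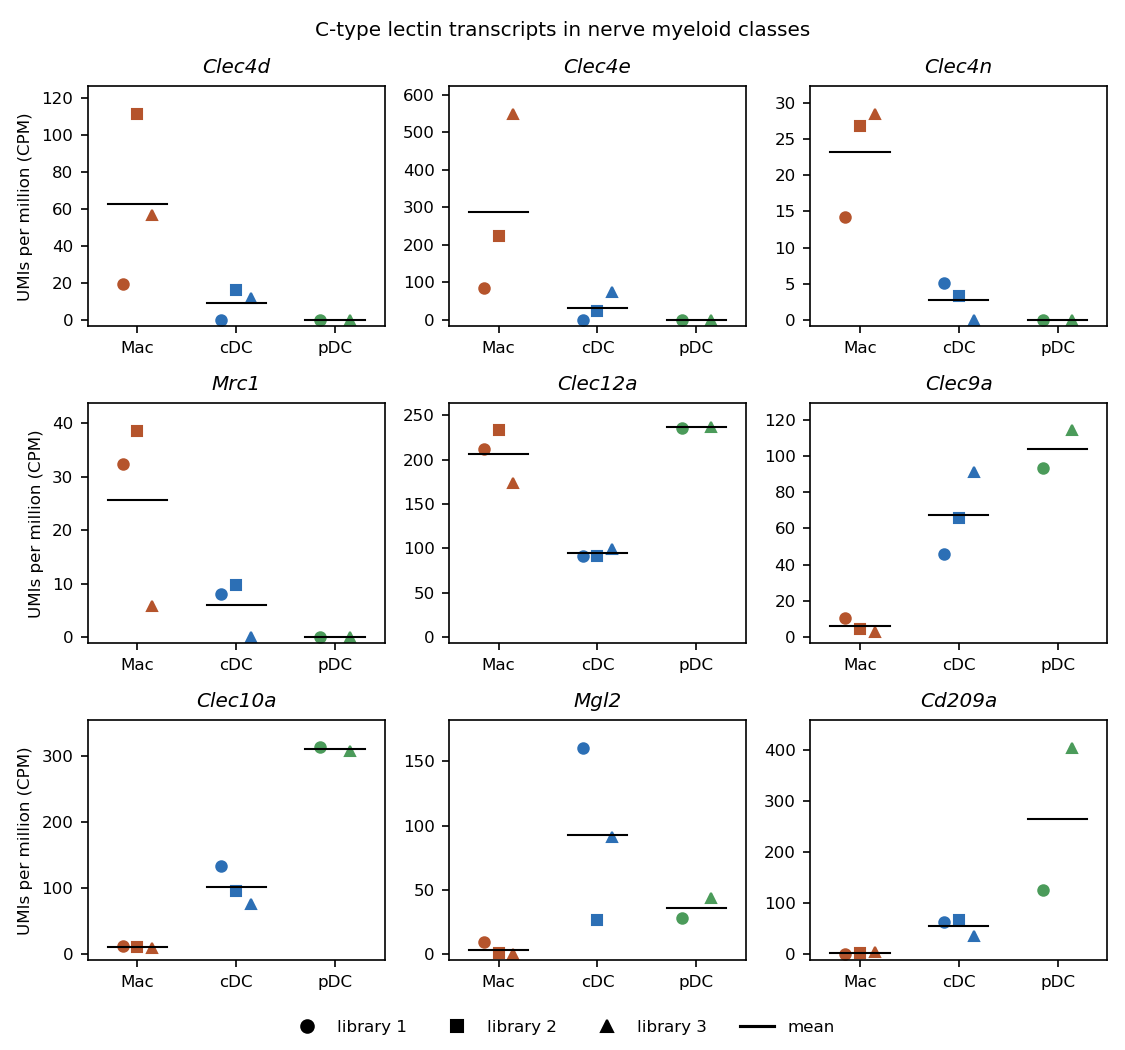
Level of each measured lectin gene in CPM (y axis, linear, own scale per gene) in Mac, cDC and pDC. Points are libraries, black lines are means, and the pDC points and mean leave out library 2, which has 2 pDCs. Clec4d, Clec4e, Clec4n and Mrc1 are at 0 in pDC, and Cd209a reaches 404 CPM in the pDCs of library 3.

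**Figure D2:**
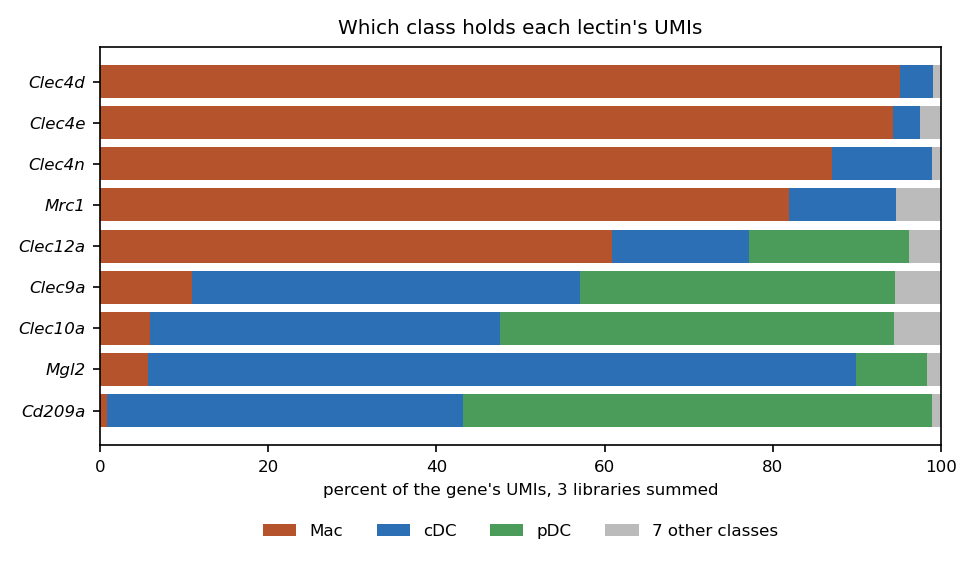
Percent of each gene's UMIs (x axis, 3 libraries summed) held by Mac, cDC, pDC and the 7 other classes, as stacked bars. Mac holds over 80% of the UMIs of Clec4d, Clec4e, Clec4n and Mrc1, and cDC holds 84.1% of those of Mgl2.

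The comparison of Mac with cDC asks which receptors separate the macrophages of the nerve from its conventional dendritic cells. All 9 measured members were called, 5 higher and 4 lower in Mac, where a call is an adjusted p under 0.05 (edgeR quasi-likelihood, Benjamini-Hochberg over 10895 genes, library as block). In the same test 19.8% of all genes were called, 12.3% higher and 7.55% lower. By DESeq2 2 members were called higher and 3 lower, and with no library block 1 higher and 4 lower. Without library 3, which stands apart in Mac, the counts were 5 and 4 again.

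Clec4e codes for Mincle, a receptor for mycobacterial glycolipid and for a nuclear protein of dying cells. It had 84.6, 224 and 549 CPM in Mac, against 1.01, 22.9 and 75.2 CPM in cDC. The lowest Mac library lay above the highest cDC library. Within each library the gap was wide as well, and the log2 fold change was 3.89 ± 0.44 (SE, adjusted p = 8.03e-07, edgeR, n = 3 libraries). It was 3.07 without library 1 and 4.84 without library 3, and DESeq2 did not call it (adjusted p = 0.105). The 28 UMIs of Clec4e in cDC came from few cells: 2 of 232, 3 of 28 and 3 of 34 cells.

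Clec4d codes for MCL, a partner of Mincle in the same receptor complex. It had 19.4, 112 and 57.0 CPM in Mac, against 0, 16.4 and 11.9 CPM in cDC. The groups did not overlap, although library 1 of Mac was near the upper cDC values. The log2 fold change was 3.59 ± 0.58 (SE, adjusted p = 0.00019, edgeR), or 2.69 without library 1. DESeq2 (adjusted p = 0.822) and the fit with no library block (0.116) did not call it.

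Clec4n codes for Dectin-2, which binds fungal mannans. It was low throughout, with 14.2, 26.8 and 28.5 CPM in Mac, against 5.04, 3.27 and 0 CPM in cDC, from 81 and 11 UMIs. The ranges stayed apart (log2 fold change 2.39 ± 0.60, SE, adjusted p = 0.00997, edgeR). This call ended without library 1 (4.0, adjusted p = 0.0759), without library 2 (2.09, 0.0837), by DESeq2 (0.803) and with no library block (0.0927).

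Some neutrophils carry the same receptors, and neutrophil markers were present in Mac. The 6 measured neutrophil markers summed to 141, 295 and 203 CPM in Mac, against 3.53, 3.27 and 0 CPM in cDC. S100a8 made 33.6, 209 and 124 CPM of this in Mac and, like Clec4d, was highest in library 2. The defining gene Ly6g had no UMI in Mac or cDC, and S100a9 has UMIs in library 1 only. Their part in the levels of Clec4d and Clec4e was not tested.

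Mrc1 codes for the mannose receptor CD206, an uptake receptor of tissue-resident macrophages. It had 32.4, 38.7 and 5.70 CPM in Mac, against 8.06, 9.82 and 0 CPM in cDC. Libraries 1 and 2 were high in Mac, and library 3, with the low C1q levels given above, was inside the cDC range. The log2 fold change was 2.24 ± 0.44 (SE, adjusted p = 0.000948, edgeR). The call ended without library 1 (2.31, adjusted p = 0.218) and with no library block (0.266).

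Clec12a codes for an inhibitory receptor that recognises uric acid crystals. It had 212, 233 and 174 CPM in Mac, against 91.7, 91.6 and 99.0 CPM in cDC. Each class varied little between libraries, and the ranges were apart. The log2 fold change was 1.36 ± 0.22 (SE, adjusted p = 5.44e-05, edgeR), and with no library block the call ended (adjusted p = 0.104).

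The dendritic members were lower in Mac. Clec9a codes for DNGR-1, which senses the exposed actin of dead cells and marks type 1 dendritic cells. It had 10.3, 4.30 and 2.85 CPM in Mac, against 45.9, 65.4 and 91.1 CPM in cDC, with no overlap. The log2 fold change was −3.04 ± 0.50 (SE, adjusted p = 7.83e-05, edgeR), or −4.27 without library 1.

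Clec10a codes for MGL1, a receptor for galactose-type sugars. It had 11.5, 10.7 and 8.56 CPM in Mac, against 134, 94.9 and 75.2 CPM in cDC. The levels within Mac lay close together and far under those of cDC. The log2 fold change was −3.17 ± 0.36 (SE, adjusted p = 4.27e-07, edgeR).

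Mgl2 codes for the related MGL2, a marker of type 2 dendritic cells. It had 9.09, 1.07 and 0 CPM in Mac, against 161, 26.2 and 91.1 CPM in cDC. The ranges were apart, while the cDC level varied widely and rested on 8 UMIs in 2 cells in library 2. The log2 fold change was −4.34 ± 0.37 (SE, adjusted p = 1.95e-08, edgeR), or −6.23 without library 1.

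Cd209a codes for a mouse homologue of DC-SIGN, a receptor for mannose-rich and fucosylated sugars. It had 0, 1.07 and 2.85 CPM in Mac, against 63.0, 65.4 and 35.6 CPM in cDC. Mac held 3 UMIs in all against 154 in cDC, a ratio of 0.0119 with an exact 95% counting interval of 0.00243 to 0.0354. The gene was called lower in Mac (adjusted p = 1.48e-06, edgeR), but not by DESeq2 (0.333).

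**Figure D3:**
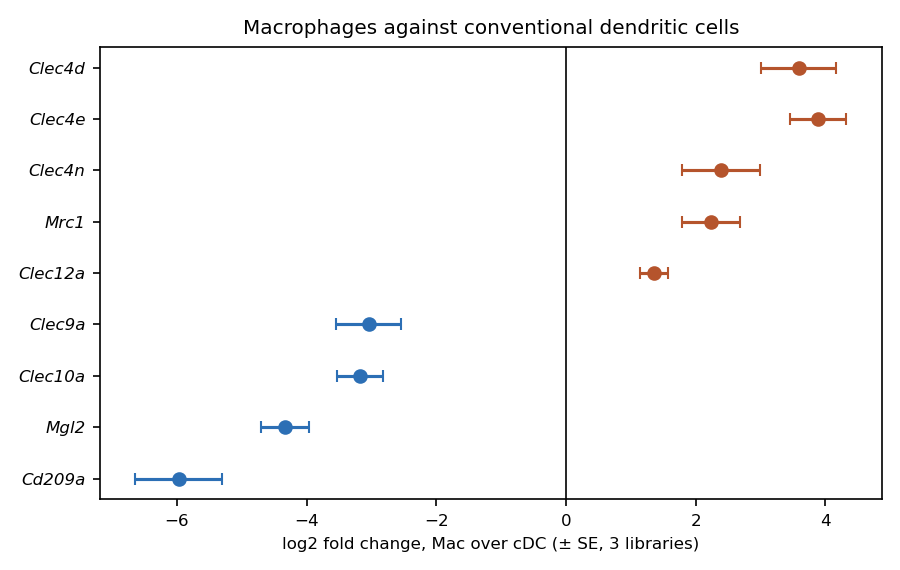
Log2 fold change of each measured lectin gene in Mac over cDC (x axis, with the standard error of the edgeR fit over 3 libraries as bars). Clec4e is highest at 3.89 and Cd209a lowest at −5.97, and no bar reaches 0.

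The next comparison sets both classes against the mean of 6 others in the fit, which are B, Cd4, Cd8, Treg, gdT/NK/NKT and Mixed. Plasma had too few cells in libraries 1 and 2 and was not in it. Against this mean all 9 members were higher in Mac and all 9 in cDC (edgeR), where 27.2% and 22.5% of all genes were. The members were chosen as receptors of myeloid cells, so this count describes the choice and is not a test of it. Clec4d, Clec4n, Cd209a, Mgl2 and Mrc1 had 1 to 7 UMIs in the 6 classes together. They passed the filter on low counts through their myeloid sums. Called in either direction were 53.6% of genes in Mac, with 26.4% lower, and 45% in cDC. Median log2 fold changes over the 9 members were 7.84 in Mac and 7.33 in cDC, against −0.11 and −0.13 over all genes. These comparisons share the sums of the 6 classes. Clec4e had 808 UMIs in Mac against 21 in the 6 classes together, a ratio of 357 (95% counting interval 232 to 579). Clec4d and Clec4n had 2 and 1 UMIs in the 6 classes, so their Mac ratios of 895 (244 to 7440) and 751 (131 to 30020) are loosely bounded. Cd209a was the weakest in Mac, with 3 UMIs there and 4 in the 6 classes, a ratio of 6.95 (1.02 to 41.1). Its call (adjusted p = 0.0415, edgeR) ended without library 2 (0.133) or library 3 (0.235), and that of Mgl2 in Mac ended without library 1 (0.192). In cDC the Clec4n call ended without library 1 (adjusted p = 0.133, edgeR). DESeq2 called 6 members in Mac and 7 in cDC. Clec10a had its highest lymphoid level in Cd8, at 2.10, 2.71 and 4.32 CPM, and Clec12a, by its mean, in gdT/NK/NKT, at 7.79, 3.27 and 5.34 CPM.

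pDCs, the interferon-producing dendritic cells, are compared in libraries 1 and 3. They had no UMI of Clec4d, Clec4e, Clec4n or Mrc1 in any library, where 0 allows up to 2.69 CPM over libraries 1 and 3. Relative to that floor of 3 counts over the group, Clec4e was at least 68.9-fold higher in Mac, Clec4d at least 10.2-fold, Mrc1 at least 9.89-fold and Clec4n at least 6.44-fold. All 4 were called higher in Mac (edgeR adjusted p = 1.77e-06, 0.000991, 0.000137 and 0.00271), where 15.7% of 11199 genes were (27.1% in either direction). These 4 genes passed the filter on low counts through classes other than pDC, so their count is no test. Alternatives with library 2 rest on its 2 pDCs of 16905 UMIs, where 3 counts make 177 CPM. With libraries 2 and 3 in place of 1 and 3, the calls of Clec4n (edgeR adjusted p = 0.0605) and Mrc1 (0.209) ended. DESeq2 called only Clec4e of the 4.

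The dendritic members were lower in Mac than in pDC, where 11.4% of genes were. Clec10a had 11.5 and 8.56 CPM in Mac, against 313 and 307 CPM in pDC (log2 fold change −4.55 ± 0.35, SE, adjusted p = 1.55e-09, edgeR). Clec9a had 10.3 and 2.85 CPM in Mac, against 93.6 and 114 CPM in pDC (−3.28 ± 0.51, adjusted p = 3.17e-05, edgeR). Mac and pDC were apart by far in both. For Mgl2 the difference was −1.95 ± 0.55 (adjusted p = 0.0115, edgeR), −4.84 with libraries 2 and 3 and −1.28 with libraries 1 and 2. Cd209a had 2 UMIs in Mac against 203 in pDC, a ratio of 0.0034 (0.000409 to 0.0124, counting error only). DESeq2 did not call Mgl2 (adjusted p = 0.122) or Cd209a (0.32), and with no library block Clec4e, Clec10a and Cd209a alone were called. Clec12a had 212 and 174 CPM in Mac, against 236 and 237 CPM in pDC, and was not called (0.05 ± 0.19, adjusted p = 0.893, edgeR). The count ratio of Clec12a was 0.863, with an interval of 0.747 to 1.00.

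Between the dendritic classes, cDC against pDC, 2 members were called higher (12.4% of genes were) and 3 lower (9.01%). Mgl2 had 161 and 91.1 CPM in cDC, against 28.2 and 43.9 CPM in pDC (log2 fold change 2.38 ± 0.42, SE, adjusted p = 0.00026, edgeR). Mrc1 was at least 2.66-fold higher in cDC (adjusted p = 0.0214, edgeR), from 16 UMIs in cDC and 0 in pDC. Mrc1 passed the filter on low counts through classes other than pDC, so its place in the count is no test. Clec10a was lower in cDC, at 134 and 75.2 CPM, against the pDC levels given above (−1.17 ± 0.28, adjusted p = 0.00358, edgeR). Clec12a, at 91.7 and 99.0 CPM in cDC, was lower too (−1.07 ± 0.22, adjusted p = 0.00105, edgeR). In both libraries these cDC values were under those of pDC.

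Cd209a had 63.0 and 35.6 CPM in cDC, against 125 and 404 CPM in pDC, and was called lower in cDC (−1.50 ± 0.41, adjusted p = 0.0124, edgeR). Most of the gap was in library 3, and with libraries 1 and 2, the latter with 2 pDCs, it was −0.54 (edgeR adjusted p = 0.358). Clec9a, at 45.9 and 91.1 CPM in cDC, was not called (−0.51 ± 0.44, adjusted p = 0.478, edgeR), and neither were Clec4d, Clec4e and Clec4n (0.394, 0.0578 and 0.109). Clec4e was called higher in cDC with no filter on low counts (0.0123) and with all 3 libraries (0.0217). With libraries 2 and 3 Clec9a turned to 0.24 (edgeR adjusted p = 0.908), all 5 calls ended, and Clec4e was called higher in cDC (0.00448). That refit too rests on the 2 pDCs of library 2, which had no UMI of Clec9a or Cd209a. With no library block 0 members were called (adjusted p from 0.11 to 0.435 for the 5), and DESeq2 called Clec10a and Clec12a.

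Markers of cDC differed in how far pDC carried them. Batf3, Xcr1, Tlr3 and Snx22 had no UMI in the pDCs of libraries 1 and 3, and Zbtb46 had 1 and 0. Flt3 had 86.2 and 194 CPM in cDC, against 135 and 184 CPM in pDC, and Cadm1 of the type 1 list had 22.7 and 23.8 CPM in cDC, against 293 and 298 CPM in pDC. The 6 conventional dendritic markers, led by Cd74 and the class II genes, summed to 35216 and 61483 CPM in cDC, against 10684 and 13811 CPM in pDC. In the other direction, the pDC genes Siglech and Ccr9 had 54.4 and 62.5 CPM in the cDC of library 1, against 2748 and 1773 CPM in its pDC. The part of these markers in the cDC and pDC levels of the dendritic members was not tested. Cd209d, a second DC-SIGN homologue named here after its values were seen, had 122, 3.27 and 23.8 CPM in cDC, against 531, 592 and 461 CPM in pDC.

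Mac were divided by Ly6c2, a surface gene of monocytes and their recent progeny, into cells with at least 1 UMI (185, 33 and 78 cells) and cells with none (182, 73 and 30 cells). A cell with no UMI may still express the gene. Clec4d and Clec4e were higher and Mrc1 was lower in Ly6c2+ Mac, where 3.85% of 5508 genes were called, 1.58% higher and 2.27% lower (edgeR).

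Clec4e had 101, 403 and 604 CPM in Ly6c2+ Mac, against 66.2, 125 and 238 CPM in Ly6c2- Mac. Ly6c2+ cells were higher in 3 of 3 libraries, while the ranges overlapped between libraries (log2 fold change 1.10 ± 0.22, SE, adjusted p = 0.00511, edgeR). Clec4d had 24.4, 226 and 62.1 CPM in Ly6c2+ Mac, against 13.6, 48.4 and 28.5 CPM in Ly6c2- Mac (1.48 ± 0.32, adjusted p = 0.00724, edgeR). This too held in 3 of 3 libraries, with the widest gap in library 2, though the Ly6c2- value of library 3 rests on 3 UMIs. Mrc1 had 16.3, 15.0 and 3.36 CPM in Ly6c2+ Mac, against 50.9, 51.8 and 19.0 CPM in Ly6c2- Mac (−1.89 ± 0.35, adjusted p = 0.00196, edgeR). Every Ly6c2- value of Mrc1 was above every Ly6c2+ value, but both values of library 3 rest on 2 UMIs, under the floor of 3 counts. Clec12a (−0.43, adjusted p = 0.337) and Clec4n (0.37, 0.803) were not called, and 4 members were too low to test.

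**Figure D4:**
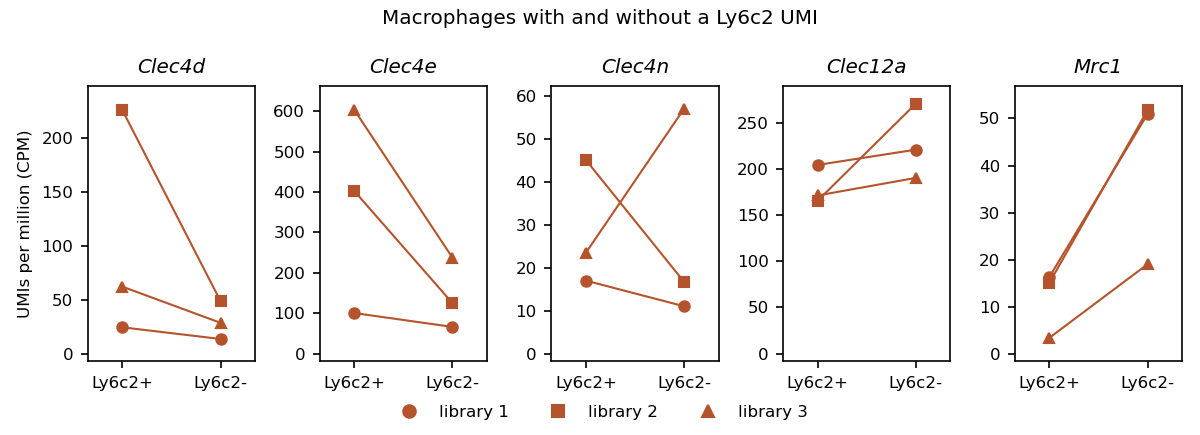
Level in CPM (y axes, linear, own scale per gene) of 5 lectin genes in Ly6c2+ and Ly6c2- Mac of each library, joined by lines. Clec4d and Clec4e are higher and Mrc1 lower in Ly6c2+ cells of all 3 libraries, and Clec4n goes the other way in library 3. Both Mrc1 values of library 3 rest on 2 UMIs.

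All 3 calls depended on library 2, and that of Clec4d also on library 1. Without library 2 Clec4d was 0.85 (edgeR adjusted p = 0.801), Clec4e 0.92 (0.356), Mrc1 −1.87 (0.142) and Clec4n −0.12 (0.997). Without library 1 the Clec4d call ended (1.86, 0.0735), the Clec4e call held and Mrc1 was too low to test. Without library 3 all 3 calls held. With no library block 0 members were called (edgeR adjusted p = 1.00, 1.00 and 0.622 for Clec4d, Clec4e and Mrc1), and DESeq2 called only Clec4e. In library 3 the Ly6c2- Mac were shallow, with a median of 2112 UMIs against 8142 in Ly6c2+ Mac, and held 144 T cell marker UMIs of 105152. Their part in the differences was not tested.

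cDC were divided by Xcr1, the chemokine receptor of type 1 dendritic cells, into 48 and 10 positive and 184 and 24 negative cells in libraries 1 and 3. All 5 tested members were called, 2 higher and 3 lower in Xcr1+ cDC, where 5.58% of 4067 genes were called, 1.72% higher and 3.86% lower (edgeR). The 3 lower ones, Mgl2, Clec10a and Cd209a, had 0, 3 and 1 UMIs in Xcr1+ cells and passed the filter on low counts through Xcr1- cells. Their count is therefore no test. Xcr1+ cells were somewhat deeper, with median UMIs of 10382 and 9064, against 8248 and 7660 in Xcr1- cells.

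Clec9a had 124 and 185 CPM in Xcr1+ cDC, against 20.1 and 46.6 CPM in Xcr1- cDC (log2 fold change 2.49 ± 0.40, SE, adjusted p = 0.000239, edgeR). Clec12a had 151 and 185 CPM in Xcr1+ cDC, against 72.3 and 58.2 CPM in Xcr1- cDC (1.27 ± 0.34, adjusted p = 0.0258, edgeR). Both genes were higher in Xcr1+ cells of each library with no overlap. Mgl2, Clec10a and Cd209a went the other way.

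Mgl2 had no UMI in Xcr1+ cDC, against 214 and 134 CPM in Xcr1- cDC, and was at least 39.2-fold lower in Xcr1+ cells (adjusted p = 1.96e-06, edgeR). Clec10a had 6.10 and 0 CPM in Xcr1+ cDC, against 176 and 111 CPM in Xcr1- cDC, from 3 and 282 UMIs (ratio 0.0309, 0.00634 to 0.0913, adjusted p = 1.13e-05, edgeR). Cd209a had 0 and 12.4 CPM in Xcr1+ cDC, against 83.7 and 46.6 CPM in Xcr1- cDC, from 1 and 133 UMIs (ratio 0.0219, 0.00055 to 0.124, adjusted p = 0.000347, edgeR). All 3 were at or near 0 in the positive cells.

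Library 2 was not in that fit, since it had 6 Xcr1+ and 22 Xcr1- cDC, and it gave the same order. Clec9a had 201 CPM in its Xcr1+ cDC against 13.6 CPM in its Xcr1- cDC, and Clec12a 213 against 45.2 CPM. Clec10a, Mgl2 and Cd209a had no UMI in those Xcr1+ cDC, against 131, 36.2 and 90.5 CPM in the Xcr1- cDC. DESeq2 called only Clec10a in the split, and with no library block 0 members were called (edgeR adjusted p from 0.426 to 0.84). The UMIs of Clec4d, Clec4e, Clec4n and Mrc1 in cDC were all in Xcr1- cells in libraries 1 and 3.

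**Figure D5:**
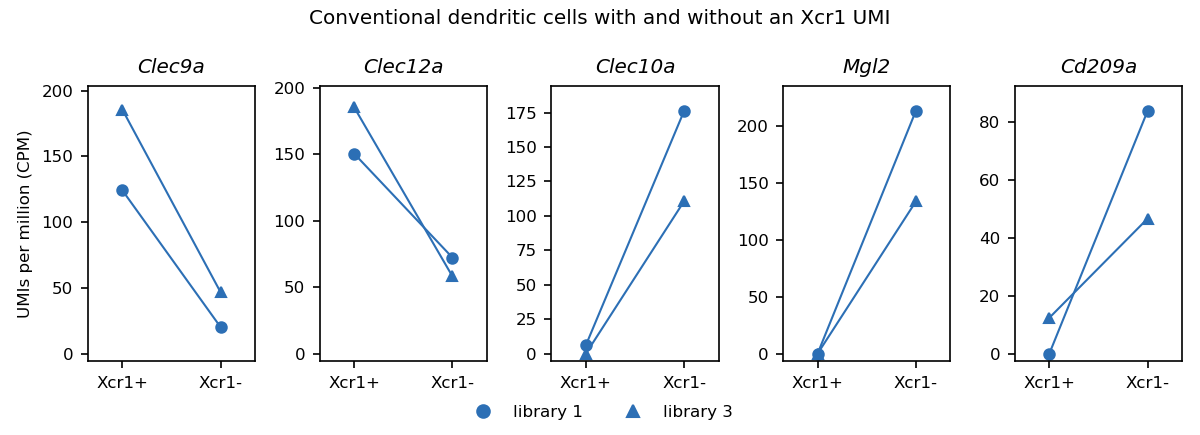
Level in CPM (y axes, linear, own scale per gene) of 5 lectin genes in Xcr1+ and Xcr1- cDC of libraries 1 and 3, joined by lines. Clec9a and Clec12a are higher in Xcr1+ cells, and Clec10a, Mgl2 and Cd209a are at or near 0 there.

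A split of cDC by Ccr7, the receptor that guides mature dendritic cells to lymph nodes, gave 1 call among the 5 tested members, all with lower fitted levels in Ccr7+ cDC. The split used libraries 1 and 2, with 60 and 12 Ccr7+ cells and 172 and 16 Ccr7- cells. Cd209a had 32.3 and 23.2 CPM in Ccr7+ cDC, against 74.1 and 96.5 CPM in Ccr7- cDC, without overlap. The Ccr7+ value of library 2 rests on 3 UMIs, at the floor of 3 counts. Cd209a was called lower (log2 fold change −1.38 ± 0.47, SE, adjusted p = 0.0443, edgeR). The others were not called, at −1.13 for Clec9a (adjusted p = 0.223, edgeR), −1.05 for Mgl2 (0.112), −0.76 for Clec12a (0.295) and −0.29 for Clec10a (0.789). The median over the 5 was −1.05, against −0.04 over all genes. Of 4122 genes 8.39% were called, 6.6% higher and 1.8% lower. The Cd209a call ended by DESeq2 (adjusted p = 0.999), with no filter on low counts (0.0933) and with no library block (0.316). With at least 2 Ccr7 UMIs in the positive cells Clec9a was called as well (−2.51, adjusted p = 0.0144, edgeR).

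Single cells were compared after drawing 1000 UMIs from each, which kept 571 of 581 Mac, 292 of 294 cDC, all 175 pDC and, as cells that should lack these genes, 1904 of 1950 B cells. At this depth 28.9%, 42.7% and 62.9% of Mac had at least 1 of the 9 transcripts, as did 33.2%, 29.6% and 24.2% of cDC, 53.8% and 66.7% of pDC (libraries 1 and 3), and 0.629%, 1.14% and 0% of B cells. Clec4e was seen in 7.71%, 14.6% and 41.9% of Mac (23.2%, 37.7% and 63.0% with all UMIs) and in none of the B cells. Clec12a was seen in 15.2%, 22.3% and 17.1% of Mac and in 22.4% and 26.7% of pDC, against 0.28%, 0% and 0% of B cells. Mac with Clec4d and Mac with Clec4e were partly the same cells. Of the Mac with a Clec4d UMI, 2 of 8, 2 of 8 and 9 of 11 also had Clec4e, beside the shares of all Mac given above, and most of this overlap was in library 3.

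Some of the adaptors and kinases behind these receptors were higher in Mac than in cDC. Of 18 lectin signalling genes, 6 were higher in Mac than in cDC, 1 was lower and 11 were not called, with a median log2 fold change of 0.40 against 0.07 over all genes. In the same test 12.3% of all genes were called higher and 7.55% lower. Fcer1g, the adaptor of Clec4d, Clec4e and Clec4n, had 1889, 2313 and 2484 CPM in Mac, against 577, 514 and 1073 CPM in cDC (log2 fold change 1.89 ± 0.27, SE, adjusted p = 6.74e-06, edgeR), with no overlap. It also had 758, 795 and 1086 CPM in gdT/NK/NKT, which held 0, 8 and 0 UMIs of Clec4d, Clec4e and Clec4n. Syk (0.82, adjusted p = 0.056) and Card9 (0.37, 0.689), the kinase and adaptor downstream, were not called. Rel, a subunit of the transcription factor NF-kB, was lower in Mac (−0.71, adjusted p = 0.0041, edgeR), a call that ended without library 2. The count of higher signalling genes was 3 by DESeq2, 1 with no library block, 1 without library 1 and 3 without library 2. In the Ly6c2 split of Mac 0 of the 18 were called higher and 0 lower (edgeR).

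Other C-type lectin genes also differed. Of 28 listed, 14 were tested, 8 were higher in Mac than in cDC, 2 were lower and 4 were not called (median 1.92). Over all genes 12.3% were higher and 7.55% lower. By DESeq2 4 were higher, and with no library block 1 was lower. Clec4a1 and Clec4a3, members of the same gene family as Clec4d, were higher by 4.48 ± 0.37 and 4.35 ± 0.41 (SE, edgeR adjusted p = 8.81e-09 and 1.3e-08), or 3.66 and 3.09 without library 1. Ly75, the endocytic receptor DEC-205 of dendritic cells, was lower in Mac (−3.73 ± 0.66, adjusted p = 0.000143, edgeR), or −5.22 without library 3. Clec1b was lower as well (−2.43, adjusted p = 0.0408), a call that ended without library 2 or 3, and it shares sequence with Clec9a.

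Among 13 genes that Syk and Card9 signalling is known to switch on, 11 were tested, 6 were higher in Mac, 2 lower and 3 not called (median 1.76). Over all genes 12.3% were higher and 7.55% lower. By DESeq2 3 were higher and 1 lower, and with no library block 2 were higher and 0 lower. The neutrophil chemoattractant Cxcl2 had 232, 1885 and 1266 CPM in Mac, against 2.52, 177 and 245 CPM in cDC (3.63 ± 0.52, SE, adjusted p = 8.36e-06, edgeR; by DESeq2 0.0916). The inflammasome sensor Nlrp3 had 112, 238 and 331 CPM in Mac, against 48.4, 32.7 and 83.1 CPM in cDC (1.97 ± 0.25, adjusted p = 2e-06, edgeR). Both genes, like Clec4d and Clec4e, were lowest in library 1 among the Mac. Il12b, a subunit of the cytokine IL-12, was lower in Mac (−2.73, adjusted p = 0.0124, edgeR), but not called without library 2 (0.0626). These genes are induced by many other signals too.

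Genes most alike to each member were sought over 24 class and library sums of log2(CPM + 1), which share libraries and depth and hold no pDC, among 12041 genes with at least 50 UMIs. Clec4d was closest to Snx24 (Pearson r = 0.98), 4930430E12Rik and Serpinb8, and Clec4e to Serpinb8 (0.97), Snx24 and Plxna4os1. Clec4n was closest to Abca9 (0.99), Msr1 and Mmp19, Mrc1 to Dock1 (0.95), Map3k20 and Nrg1, and Clec12a to Gm47754 (0.97), Spon1 and Tbxas1. Timd4 (0.95) and Tspan33 were among the 3 closest to Clec9a, and Clec10a was closest to Dcstamp (0.95), Pak1 and Tspan33. Il12b (0.95) and Clec9a were among the 3 closest to Mgl2, and Cd209a was closest to Zfp366 (0.95), Cldn1 and Plppr4. Such r values compare sums of whole classes and do not show that genes are in the same cells. In cDC thinned to equal depth, 0 of 26 cells with Mgl2 also had Clec9a, against 7.52% of the other cDC. Of those 26 cells 25 were in library 1 and 1 in library 2, and the difference was not tested. Mgl2 had no UMI in Xcr1+ cDC, where Clec9a was higher (log2 fold change 2.49, edgeR). Clec4d and Clec4e had Snx24 and Serpinb8 in common among their closest 3.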

How the data were processed

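Leukocytes of 3 libraries were analysed from the deposited UMI counts per gene and cell, which the authors left unnormalised. The submitters' processing notes name Cell Ranger 5.0.1, Seurat 4.0 and build mm10, without their roles. Cell classes came from the deposited annotation, whose mitochondrial percent per cell was deposited too and not used for filtering. No cell was removed in the main comparisons; doublet scores were an alternative. Counts were summed per class and library with at least 20 cells and tested with edgeR 4.0.16 (TMM, filterByExpr, quasi-likelihood, library as block; limma 3.58.1 and DESeq2 1.42.0 as alternatives) in R 4.3.3. Calls are Benjamini-Hochberg adjusted p under 0.05 over all genes tested. The 3 libraries hold every class of the same nerves, so library numbers pair the sums: deviations of Mac and cDC correlated at 0.592, 0.444 and 0.666 over 7704 genes. Splits by Ly6c2, Xcr1 or Ccr7 needed 10 cells a side. Python 3.11.15 with scanpy 1.11.5 thinned cells to 1000 UMIs and gave exact 95% intervals, which, like the floor of 3 counts, cover counting error only. The fit was tested on simulated data. The members and lists were chosen with earlier results of these data known. Apart from the members, the rule names list genes called between Mac and cDC and the 3 genes most alike to each member, of which 1 is not reported here; Syk, Card9 and Cd209d fall outside it and were chosen after their values were seen, and markers are given as checks. Alternatives were other tools, no filter, no library block, each library left out, doublets or cells with lymphocyte UMIs left out, fewer classes, and all 3 libraries for pDC.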

Additional observations from a re-analysis of the deposited data

How the results depend on the processing

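Over all settings of the members' fold changes, 354 values kept direction and call, 67 lost the call, 4 gained it and 2 reversed. The reversals were Clec9a in cDC minus pDC without library 1 (0.24, against −0.37 without library 3) and Clec4n in the Ly6c2 split without library 2 (−0.12, against 0.82 without library 3). Fits of pDC without library 1 or 3 use library 2, with its 2 pDCs. The cause was not tested for any lost call. With no library block (no pairing), members called higher and lower fell to 1 and 4 in Mac minus cDC, 1 and 2 in Mac minus pDC, and 0 and 0 in cDC minus pDC and in the Ly6c2 and Xcr1 splits, with 0 lower in the Ccr7 split. All genes called in those fits with no block were 823 (Mac minus cDC), 3786 (Mac minus the 6 other classes), 3227 (cDC minus the 6 other classes), 1286 (Mac minus pDC), 798 (cDC minus pDC), 1 (Ly6c2), 0 (Xcr1) and 13 (Ccr7), against 2161, 5841, 4900, 3037, 2399, 212, 227 and 346 with it.

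DESeq2 called 2 members higher in Mac minus cDC, 1 higher and 2 lower in Mac minus pDC, 0 higher in cDC minus pDC, 1 higher and 0 lower in the Ly6c2 split, 0 higher and 1 lower in the Xcr1 split and 0 lower in the Ccr7 split. Its counts over all genes were 87, 48 and 66 in those 3 splits. Fitting only Mac and cDC gave 1121 called genes, no filter on low counts 0 lower members in the Ccr7 split, and a minimum of 2 Ccr7 UMIs 2. With each library left out in turn, members called higher ranged from 3 to 5 in Mac minus cDC, 2 to 4 in Mac minus pDC, 1 to 2 in cDC minus pDC and 0 to 2 in the Ly6c2 split, and members called lower from 0 to 2 in cDC minus pDC and 0 to 1 in the Ly6c2 split. All genes called ranged from 819 to 2050, 2518 to 4531 (cDC minus the 6 other classes), 1389 to 2900, 852 to 2337 and 30 to 325. The share of calls that were higher in cDC than in the 6 other classes was 69.5% without library 1, against 50%, and the median of all genes in Mac minus pDC moved to 0.31 without library 1, against 0.05. Leaving out a library in the Xcr1 and Ccr7 splits, and a minimum of 2 UMIs in the Xcr1 split, were not run. Depth limits Clec4n, Mrc1 in library 3, and Cd209a in Mac, which rest on few UMIs.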
